A study of Homo sapiens with 4 samples.

Results

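The genes described here are the matrix metalloproteinases (MMPs) and the tissue inhibitors of metalloproteinases (TIMPs), chosen by symbol from a family of 10 named genes. Of these, 5 were found among the 16811 genes of the deposited table, namely *MMP2*, *MMP14*, *TIMP1*, *TIMP2* and *TIMP3*. The collagenases, stromelysins and the second gelatinase of the family (*MMP1*, *MMP3*, *MMP9*, *MMP10* and *MMP13*) were not analysed here. RNA-seq compared MCF12A cells, a non-tumorigenic human mammary epithelial line, in 2 states. Edited cells, given in the labels as C1orf132 KO, carry a CRISPR/Cas9 deletion of the putative p2 promoter of *C1orf132*, the host gene of miR-29b2 and miR-29c. Wild-type cells are the unedited line, grown in the same medium with horse serum, EGF, hydrocortisone, cholera toxin and insulin. Each state has 2 libraries, numbered 1 and 2 as in the labels. Single sorted cells were grown into edited colonies, and the sources used here do not say which colony or colonies gave the RNA. If it was 1 colony, the replicates share every feature particular to that clone.

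MMPs are zinc endopeptidases that cut proteins of the extracellular matrix. Most are secreted as inactive proenzymes. *MMP14* encodes a membrane-bound enzyme that activates the secreted proenzyme of *MMP2*, a gelatinase, with the TIMP2 protein acting as the bridge between them. The TIMPs bind the active enzymes and block them, and TIMP3 differs from the other inhibitors in being held in the matrix. In the mammary gland these proteins take part in branching of the ducts and in the loss of milk-producing tissue after lactation.

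The deposited values are an expression signal normalized by the authors, and they are not read counts. Their totals ranged from 1444640 to 1655440 per library. The most frequent exact ratio between the values of 2 libraries gives their relative depth, relative to edited replicate 1: edited replicate 2 stood at 1.12, and the wild-type libraries at 0.930 and 1.00. In 53 genes with a single annotated transcript, the values were small whole multiples of a step, and the upper quartile of that step was 2.92 times the lower quartile. After multiplication by transcript length this spread was 1.12 times, so the values are treated as a level per length and may be compared between genes. On 1 kb of transcript, 1 read was worth about 0.113 in edited replicate 1. Read numbers given below are estimates on this basis, and the counting error they imply leaves out all other error. *C1orf132* was not analysed here, so the state of each library rests on its label.

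Cell type markers were read in the same table. All 10 mammary epithelial markers had a row, and their summed value was 5033 and 6091 in edited cells, against 11858 and 20756 in wild-type cells. Called means an adjusted p under 0.05 by limma, as described below. Of these genes 4 were called lower in edited cells (*EPCAM*, *CDH1*, *KRT17* and *TP63*) and 1 higher (*KRT8*). Over all tested genes, 4.2% were called lower and 7.09% in either direction. *KRT5*, *KRT14*, *KRT18*, *ITGA6* and *LAMA3* were not called. Among them *KRT5* was at 3514 and 3056 in edited and 4590 and 11914 in wild-type libraries, and *KRT18* had a log2 fold change of 0.89. Without 1 library at a time, *CDH1* was called in 3 of 4 fits, *EPCAM* and *TP63* in 2, *KRT17* in 1 and *KRT8* in 0. Fibroblast markers had a row for 3 of 9 genes, with a summed value from 30.5 to 225 in edited and from 52.3 to 78.0 in wild-type libraries. Leukocyte markers had a row for 4 of 8 genes (summed value from 42.6 to 60.6 in edited and from 72.8 to 91.5 in wild-type libraries), and endothelial markers for 0 of 5. *COL1A1* among the fibroblast and *ITGAM* among the leukocyte markers were called lower in edited cells, in 1 and 2 of these 4 fits. Of the 3 fibroblast markers with a row, 2 had a positive log2 fold change. *DCN* was at 15.1 and 105 in edited and 7.42 and 1.09 in wild-type libraries. It was not called (log2 fold change 3.30, adjusted p = 0.0974, limma), and *FAP* had a log2 fold change of 0.08. *PTPRC* and the endothelial markers were not analysed here. The part of these markers in the results below was not tested. In bulk RNA, fewer cells of a type and less RNA per cell cannot be told apart.

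In wild-type cells, *MMP14* had the highest level of the 5 genes and *MMP2* the lowest. By mean value per length the order was *MMP14* (251 ± 8.45, SD, n = 2), *TIMP1* (181 ± 54.2), *TIMP3* (167 ± 11.4), *TIMP2* (38.2 ± 11.7) and *MMP2* (23.9 ± 2.37). The values of *TIMP1* lay on both sides of those of *TIMP3*, so this pair cannot be ordered. In edited cells *TIMP1* stood first with 774 ± 516 (SD, n = 2). It was followed by *MMP14* (108 ± 57.2), *TIMP3* (73.7 ± 14.0), *TIMP2* (56.4 ± 11.2) and *MMP2* (18.7 ± 17.9). There the ranges of *MMP14* and *TIMP3* overlapped, and so did those of *TIMP3* and *TIMP2*.

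**Figure D1:**
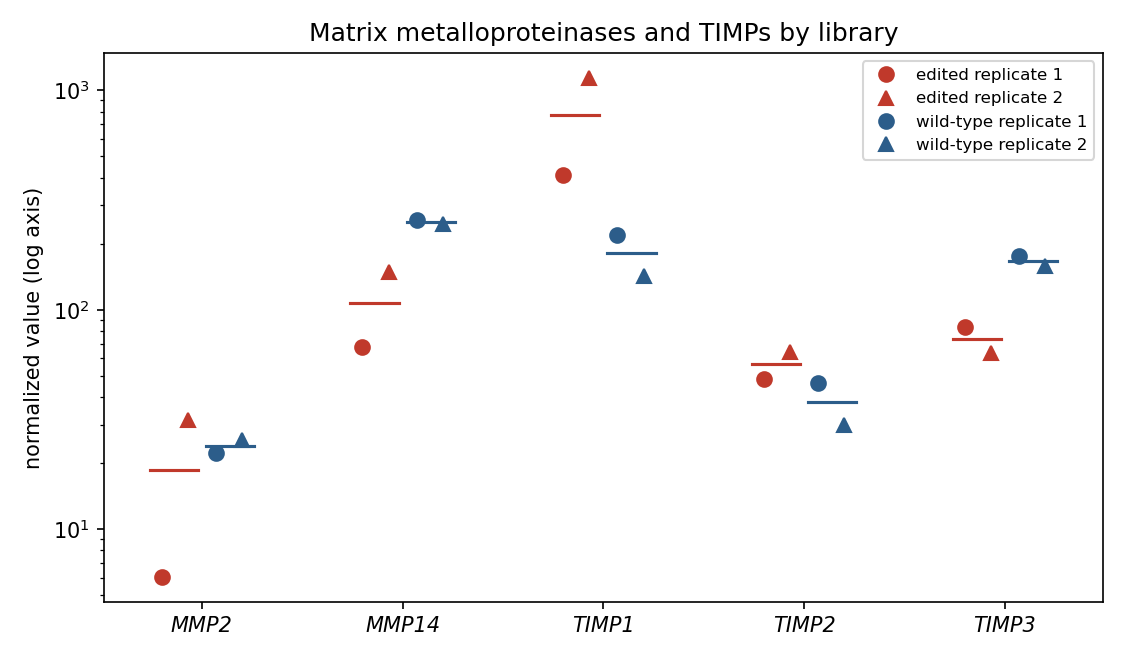
The plot gives the normalized value of each gene (log axis) in the 2 edited libraries (red) and the 2 wild-type libraries (blue), with circles for replicate 1, triangles for replicate 2 and bars for group means. The edited libraries lie above the wild-type libraries for TIMP1 and TIMP2 and below them for MMP14 and TIMP3, while for MMP2 the groups overlap.

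The 2 states were then compared by limma on log2(value + 1), over 9590 genes whose mean value reached 10, among them all 5 members of the family. At an adjusted p under 0.05 (Benjamini-Hochberg), 1 of the 5 genes was called, *TIMP3*, against 7.09% of all tested genes in either direction and 4.2% of all tested genes in the lower direction. The median log2 fold change of the 5 genes was -0.72, against 0.09 for all tested genes. Edited and wild-type values did not overlap for 4 of the 5 genes, a condition met by 65.1% of all tested genes. Neither share sets these genes apart. With 2 libraries in each state, no exact permutation p (two-sided) can be smaller than 0.333, so the tests of single genes rest on the spread that limma shares across genes.

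*TIMP3*, the inhibitor held in the matrix, was lower in edited cells. The edited replicates gave values of 83.6 and 63.7, and the wild-type replicates gave 175 and 159 (replicate 1 first here and below). Both edited libraries lay below both wild-type libraries, and the replicates differed by 1.31 times in edited and 1.10 times in wild-type cells. The wild-type mean was 2.27 times the edited mean, from about 2902 to 6605 estimated reads per library. On the log2 scale the difference was -1.18 (standard error 0.22, 95% interval -1.72 to -0.64, adjusted p = 0.0407, limma). Refitted without 1 library at a time, it ranged from -1.37 to -0.99. The call held without edited replicate 1 (adjusted p = 0.0354) and was lost without edited replicate 2 (0.0516), wild-type replicate 1 (0.119) or wild-type replicate 2 (0.192), in limma fits that leave 1 library in an arm.

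*TIMP3* (ENSG00000100234) is read from the plus strand of chromosome 22, at 32801705 to 32863041 (GRCh38). In the annotation *SYN3* overlaps it on the opposite strand, and *SYN3* was not analysed here. Overlaps here and below are of whole gene spans, introns included, and exons were not compared. Whether reads were counted by strand is not given in the sources used here, so any reads from the opposite strand cannot be told apart. Among 208 tested genes matched to chromosome 22 the median log2 fold change was 0.24, and *TIMP3* lay -1.42 from it. The 250 bases before its RefSeq start (chr22:32801455-32801704, GRCh38.p14, plus strand) are shown because *TIMP3* carries the one call among the 5 genes. They were searched on both strands for AP-1 (TGAGTCA), ETS (AGGAAG) and TATA box (TATAAA) letters, which would be in capitals, and held none of them:
TIMP3: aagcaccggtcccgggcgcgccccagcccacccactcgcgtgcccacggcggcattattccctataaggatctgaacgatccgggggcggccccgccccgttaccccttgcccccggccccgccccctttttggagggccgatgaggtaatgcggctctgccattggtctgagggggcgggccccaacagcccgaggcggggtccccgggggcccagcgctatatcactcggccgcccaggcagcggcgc

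This window was rich in G and C, at 72.4% against a median of 58.0% over 35116 promoter windows of the same length. It held 26 CpG dinucleotides, more than 80.4% of those windows, whose median was 11. The letters searched are found in 4.20% (AP-1), 28.7% (ETS) and 10.7% (TATA box) of all such windows.

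*TIMP1*, a secreted inhibitor of most MMPs, had higher values in edited cells without passing the threshold. The edited replicates gave 409 and 1139, and the wild-type replicates 219 and 142. Both edited libraries exceeded both wild-type libraries, and edited replicate 2 was 2.78 times edited replicate 1. The mean was 4.29 times that of wild-type cells, and about 968 to 8670 reads were estimated per library. On the log2 scale the difference was 1.95 (standard error 0.51, 95% interval 0.67 to 3.22, adjusted p = 0.0751, limma). Without edited replicate 1 it was 2.68 and passed the threshold (adjusted p = 0.00676, limma), and without edited replicate 2 it was 1.21 (0.0549). The ratio of means was 6.31 and 2.27 in these cases, and leaving out a wild-type library made it 5.44 (replicate 1) or 3.54 (replicate 2).

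*TIMP1* (ENSG00000102265) is read from the plus strand of chromosome X, at 47582436 to 47586789 (GRCh38). It lies inside the span of *SYN1* and overlaps a gene with no symbol, both on the opposite strand and not analysed here. The 250 bases before its RefSeq start (chrX:47582186-47582435, GRCh38.p14, plus strand) are shown beside those of *TIMP3* because the values of these inhibitors lay farthest apart between the states, in opposite directions. Capitals mark the ETS letters, found once on the plus strand at positions -87 to -82 relative to the start. The exact AP-1 and TATA box letters were not in this window, and variants of them were not searched:
TIMP1: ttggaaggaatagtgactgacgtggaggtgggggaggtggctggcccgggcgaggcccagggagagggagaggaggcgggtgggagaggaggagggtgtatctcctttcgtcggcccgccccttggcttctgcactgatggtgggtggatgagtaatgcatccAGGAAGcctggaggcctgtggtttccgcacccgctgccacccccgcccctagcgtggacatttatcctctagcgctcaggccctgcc

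A match to such letters is a description and not evidence of binding. Only exact letters were searched in each window, so the lack of a match does not show that a site is absent. The *TIMP1* window was 64.8% G and C, with 12 CpG dinucleotides, fewer than the 26 of *TIMP3*.

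*TIMP2*, the inhibitor that also links MMP14 to the MMP2 proenzyme, differed least among the inhibitors. Values of 48.5 and 64.3 were found in the edited replicates, against 46.5 and 29.9 in the wild-type replicates. Edited replicate 1 and wild-type replicate 1 were nearly level, and the groups were separated by that gap only. The log2 fold change was 0.57 (standard error 0.27, 95% interval -0.11 to 1.25, adjusted p = 0.210, limma), and leaving out a wild-type library moved it to 0.88 (replicate 1) or 0.26 (replicate 2). *TIMP2* (ENSG00000035862) is read from the minus strand of chromosome 17, at 78852977 to 78925387 (GRCh38). In the annotation *CEP295NL* overlaps it on the same strand and 3 genes with no symbol on the opposite strand, none of which was analysed here.

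*MMP14*, the membrane-bound enzyme, had lower values in edited cells without passing the threshold. The edited replicates gave 67.5 and 148, and the wild-type replicates 257 and 245. The wild-type libraries differed by 1.05 times and the edited libraries by 2.20 times, with edited replicate 1 the lower. The wild-type mean was 2.33 times the edited mean, from about 2205 to 8032 estimated reads per library. On the log2 scale the difference was -1.32 (standard error 0.38, 95% interval -2.27 to -0.37, adjusted p = 0.0865, limma). Without edited replicate 2 it was -1.88 and passed the threshold (adjusted p = 0.00610, limma), and without edited replicate 1 it was -0.76 (0.203).

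*MMP14* (ENSG00000157227) is read from the plus strand of chromosome 14, at 22836585 to 22847758 (GRCh38). Tested genes matched to chromosome 14 had a median log2 fold change of -0.46 over 296 genes, lower than that of all tested genes. *MMP14* lay -0.86 from the median of its chromosome, and the part of the chromosome in its value was not tested. The 250 bases before its RefSeq start (chr14:22836335-22836584, GRCh38.p14, plus strand) are shown for comparison with the inhibitors, and held none of the AP-1, ETS or TATA box letters:
MMP14: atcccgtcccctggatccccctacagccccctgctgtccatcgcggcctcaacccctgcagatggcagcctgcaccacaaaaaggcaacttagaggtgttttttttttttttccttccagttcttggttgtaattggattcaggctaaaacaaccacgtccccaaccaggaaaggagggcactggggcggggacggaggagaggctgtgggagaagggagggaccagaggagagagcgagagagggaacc

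This window was 56.8% G and C, with 7 CpG dinucleotides, the lowest of the 3 windows shown. *MMP2* and *TIMP2* had no entry in the promoter table used.

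*MMP2*, the gelatinase activated by MMP14, did not differ in a stable direction. Values of 6.06 and 31.3 were found in the edited replicates, against 22.3 and 25.6 in the wild-type replicates. Edited replicate 1 lay below both wild-type libraries and edited replicate 2 above both, so the groups overlapped. About 188 reads were estimated in edited replicate 1 and 643 to 1091 in the other libraries, so the 5.17-fold difference between the edited replicates is far larger than counting error. The log2 fold change was -0.72 (standard error 0.68, 95% interval -2.41 to 0.97, adjusted p = 0.497, limma). It was -1.82 without edited replicate 2 (adjusted p = 0.00863, limma) and 0.38 without edited replicate 1 (0.452), which turns the direction.

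*MMP2* (ENSG00000087245) is read from the plus strand of chromosome 16, at 55478830 to 55506691 (GRCh38). In the annotation it overlaps *MMP2-AS1* and a gene with no symbol on the opposite strand. It also overlaps another gene with no symbol on its own strand, and none of these was analysed here. Because the edited locus hosts miR-29 precursors, the 3 prime UTRs of the 5 genes were searched for the complement of the miR-29 seed, TGGTGCT. In the RefSeq sequence below, capitals mark the seed (bases 2 to 8), which miR-29a-3p, miR-29b-3p and miR-29c-3p share. In the site, capitals mark the match, at bases 299 to 305 of the *MMP2* 3 prime UTR of 1249 bases (GENCODE version 44, the canonical transcript):
miR-29c-3p: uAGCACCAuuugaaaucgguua
MMP2 site: ctgctttgggctgcccTGGTGCTgccaca

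This was the only match in the 5 genes. The 3 prime UTRs of *MMP14* (1719 bases), *TIMP1* (98 bases), *TIMP2* (2690 bases) and *TIMP3* (3664 bases) held 0 of these letters. Among 8369 tested genes with a 3 prime UTR (median length 1209 bases), 15.3% held at least 1 match. A match is a description and not evidence of regulation.

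Ratios between genes within 1 library do not change with the scaling between libraries. They were taken after the values had been seen and are given without a test. They are ratios of RNA levels, and how far an inhibitor blocks a given enzyme was not measured. The ratio of *TIMP1* to *MMP14* was 6.07 and 7.68 in the edited replicates, and only 0.851 and 0.580 in the wild-type replicates. The *TIMP1* value thus exceeded that of *MMP14* in both edited libraries and lay below it in both wild-type libraries. The mean ratio was 9.61 times as high in edited cells. For *TIMP2* to *MMP14* the ratio was 0.719 and 0.434 in edited and 0.181 and 0.122 in wild-type libraries, again without overlap. The ratio of *TIMP3* to *MMP14*, at 1.24 and 0.430 in edited and 0.680 and 0.647 in wild-type libraries, did overlap.

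Summed over the family members present, the 3 TIMPs stood to *MMP2* plus *MMP14* as 7.37 and 7.05 to 1 in the edited replicates. The same ratio was 1.57 and 1.22 in the wild-type replicates. These sums count each TIMP alike against both enzymes, whichever of them it blocks. They also leave out the 5 members not analysed and the other MMPs with a row. Among the latter is *MMP28*, with a mean of 36.9 in edited and 65.1 in wild-type cells. The mean ratio was 7.21 ± 0.222 (SD, n = 2) in edited cells, where the sum of the TIMPs was 541 and 1267 and the sum of the MMPs 73.5 and 180. Both sums were lower in edited replicate 1 than in edited replicate 2. *TIMP1* made up 75.6% and 89.9% of the summed TIMP value in edited and 49.7% and 43.0% in wild-type libraries. *TIMP3* made up 15.4% and 5.03% in edited and 39.7% and 48.0% in wild-type libraries. The share of *TIMP2* was 5.08% to 10.6% in all 4 libraries. A share falls when another gene of the sum rises, so the 3 shares are not independent of each other.

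**Figure D2:**
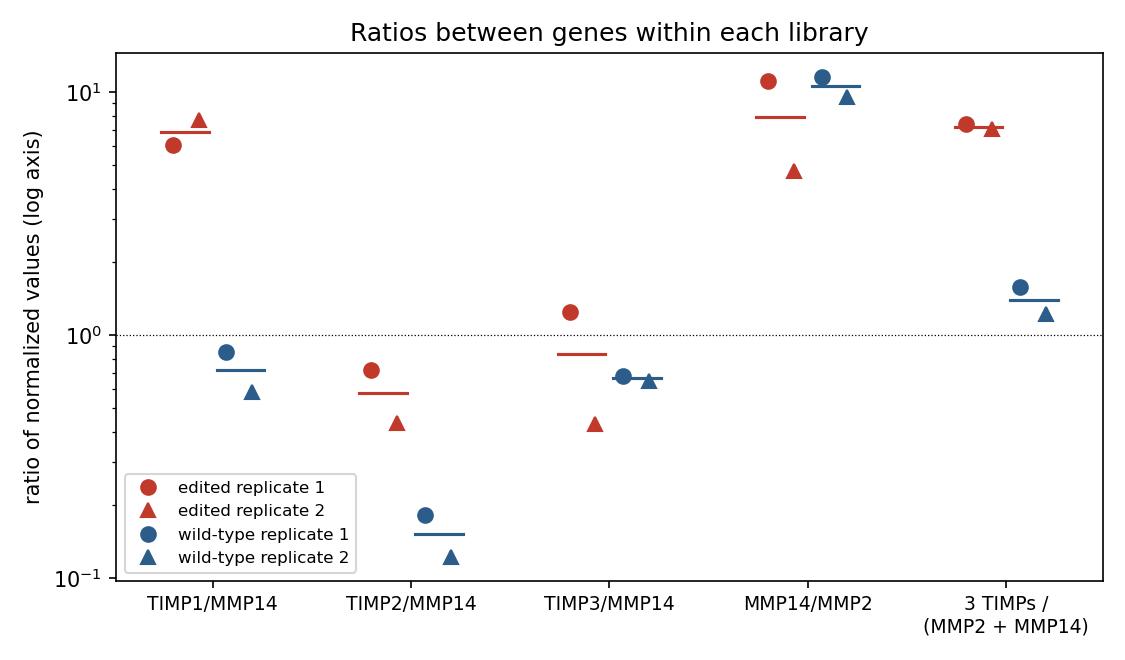
The plot gives ratios of normalized values between genes within each library (log axis), with edited libraries in red, wild-type libraries in blue, circles for replicate 1, triangles for replicate 2 and bars for group means. The summed ratio of TIMPs to MMP2 plus MMP14 was 7.37 and 7.05 in edited cells and 1.57 and 1.22 in wild-type cells, while TIMP3/MMP14 and MMP14/MMP2 overlapped between the groups.

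The rest of the MMP family and the other genes around matrix breakdown were read from lists written for this comparison. Genes under a mean of 10 were tested in the same way among all 16811 genes, where 4.73% were called. Of 16 other MMPs, 6 had a row, and 1 was called, *MMP7* (matrilysin), an enzyme made by glandular epithelium. It was at 0.378 and 1.01 in edited and 6.33 and 8.22 in wild-type libraries, from about 4 and 11 against 58 and 81 estimated reads. Its log2 fold change reached -2.30 (standard error 0.30, adjusted p = 0.0307, limma), with the wild-type mean 10.5 times the edited mean. Without 1 library at a time it ranged from -2.58 to -2.03, and in none of these 4 fits did it pass the threshold (adjusted p from 0.0549 to 0.222). *MMP28* (epilysin), the most abundant of these 6 genes, was at 31.1 and 42.6 in edited and 55.0 and 75.2 in wild-type libraries (a log2 fold change of -0.80 at an adjusted p of 0.0954, limma). *MMP15*, *MMP17*, *MMP19* and *MMP23B* had mean values under 10 and log2 fold changes from -0.19 to 0.53, and were not called. Of 3 other inhibitors, 1 had a row: *RECK*, a membrane-anchored MMP inhibitor, had nearly equal values, with a log2 fold change of 0.04 (95% interval -0.55 to 0.63, adjusted p = 0.925, limma).

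**Figure D3:**
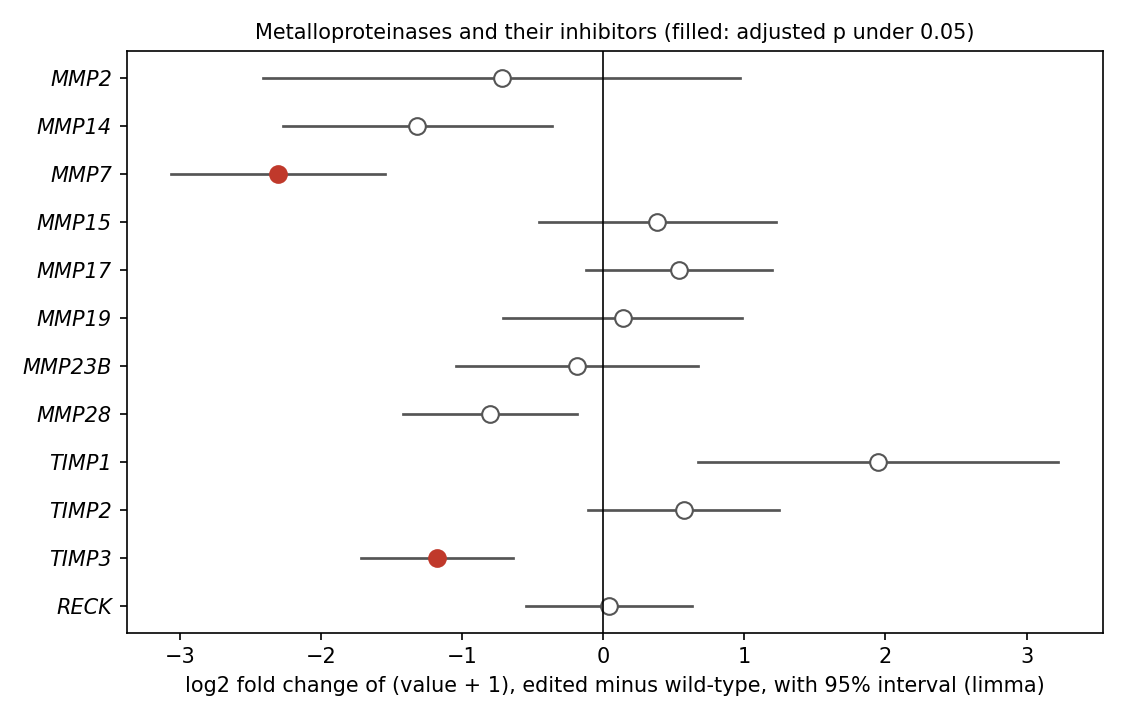
The plot gives the log2 fold change of value + 1 (edited minus wild-type) with its 95% interval from limma for the MMPs, TIMPs and RECK that had a row. Filled points, TIMP3 and MMP7, passed an adjusted p of 0.05, and both lie below 0.

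Among ADAM proteinases, membrane-bound relatives that release proteins from the cell surface, 8 of 9 had a row and 1 was called. Over all genes, 7.09% were called where the mean reached 10 and 4.73% without that filter. *ADAM28* was at 1.87 and 3.38 in edited and 15.9 and 16.1 in wild-type libraries (a log2 fold change of -2.26 at an adjusted p of 0.0272, limma). Without 1 library at a time its adjusted p ranged from 0.0404 to 0.222, and of these fits it passed only the one without edited replicate 2. *ADAM15*, the most abundant of the list, had a log2 fold change of 0.07 (adjusted p = 0.839, limma). Of 16 ADAMTS proteinases, which are secreted, 7 had a row and 0 were called by limma, although 6 had an unadjusted p under 0.05, of which 3 had higher and 3 lower values in edited cells. Over all genes without the filter, 4909 of 16811 had such a p, and 3095 of 9590 where the mean reached 10. Of 4 proprotein convertases, which cut the propeptide of membrane-type MMPs in the cell, 0 were called by limma, and the 2 with an unadjusted p under 0.05, *PCSK7* and *PCSK5* (the latter named after its values were seen), had values in opposite directions. The most abundant, *PCSK7*, had a log2 fold change of 0.55 (adjusted p = 0.126, limma).

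The plasminogen system, whose product plasmin can activate secreted MMPs, had 7 of 8 genes with a row and 1 called. The share called over all genes was 7.09% where the mean reached 10 and 4.73% without that filter. *SERPINE2* (protease nexin 1), an inhibitor of serine proteases, was higher in edited cells, at 122 and 830 against 21.0 and 5.94 in wild-type libraries. Its log2 fold change reached 4.70 (standard error 0.97, adjusted p = 0.0494, limma). Leaving out an edited library made it 6.07 (replicate 1) or 3.32 (replicate 2), and the call was lost without wild-type replicate 1 (0.0982) or wild-type replicate 2 (0.244).

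Among 9 of 11 surface partners and clearance genes with a row, 1 was called, against 7.09% of all tested genes. *LCN2* (lipocalin 2), which forms a complex with MMP9, was at 1.73 and 2.53 in edited and 509 and 164 in wild-type libraries. Its log2 fold change reached -6.54 (standard error 0.52, adjusted p = 0.00653, limma), and it passed the threshold whichever library was left out (adjusted p from 0.000432 to 0.0365). *BSG* (basigin), known as an inducer of MMPs, was at 1872 and 2063 in edited and 1685 and 1563 in wild-type libraries and was not called (log2 fold change 0.28, adjusted p = 0.380, limma).

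Of 15 AP-1, ETS and RUNX factors, families that bind MMP and TIMP promoters, 14 had a row and 2 were called, both lower in edited cells. Over all tested genes, 7.09% were called in either direction and 4.2% lower. *ELF3*, an epithelial ETS factor, was at 50.7 and 35.1 in edited and 681 and 633 in wild-type libraries (a log2 fold change of -3.93 at an adjusted p of 0.00328, limma). It passed with each library left out except wild-type replicate 2 (adjusted p = 0.0681). *ATF3*, a stress-responsive partner of AP-1, was at 5.32 and 5.48 in edited and 26.1 and 31.3 in wild-type libraries (a log2 fold change of -2.21 at an adjusted p of 0.0103, limma), and was not called without wild-type replicate 1 (0.0647) or wild-type replicate 2 (0.104). *ETS2*, the factor with the highest mean among those not called, had a log2 fold change of -1.03 (adjusted p = 0.0749, limma). The median log2 fold change of this list was -0.67, of the surface partners -0.47, of the plasminogen system -0.90 and of the ADAM proteinases -0.35. It was 0.52 for the ADAMTS proteinases, 0.41 for the convertases and -0.02 for the other MMPs. Over all genes it was 0.09 where the mean reached 10, and 0.01 without that filter.

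**Figure D4:**
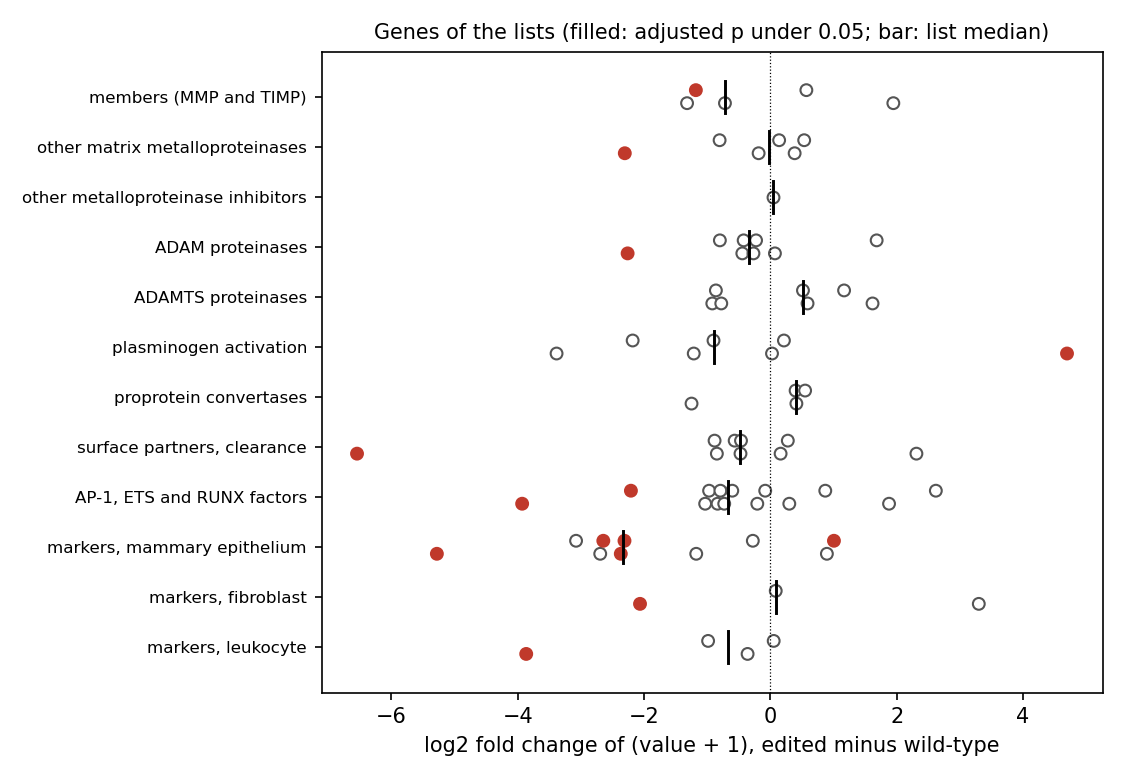
The plot gives the log2 fold change of value + 1 (edited minus wild-type) of each gene with a row, by list, with a vertical bar at the list median. Filled points passed an adjusted p of 0.05 (limma), with LCN2 (-6.54) and SERPINE2 (4.70) farthest from 0 on either side, and the mammary epithelial markers held 5 of them.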

How the data were processed

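RNA was poly(A)-selected from 2 edited and 2 wild-type cultures. The authors deposited 1 expression signal per gene and library, normalized between libraries. The submitters' processing notes name Salmon, HISAT2 and hg38. Their versions, the annotation and the normalization method are not given in the sources used here. Groups and replicate numbers came from the sample titles, and 0 columns of per-sample values were left unused.

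Values were tested with limma 3.58.1 in R 4.3.3 (lmFit, eBayes with trend) on log2(value + 1) for genes with a mean of at least 10. Genes were called at 0.05 after Benjamini-Hochberg adjustment. The added 1 shrinks the fold change of genes with low values. Genes under that mean were tested without the filter. The script was tested on simulated data. The replicates may share a colony, in which case p-values measure only the spread between these samples.

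The relative depth was the most frequent exact ratio between the values of 2 libraries, and whole multiples were accepted within 0.002 reads. Promoter windows and miRNA sequences came from RefSeq (GRCh38.p14; 3 of 5 members matched), chromosomes from RefSeq by symbol (8478 of 9590 tested genes, 88.4%), and transcript lengths, overlaps and 3 prime UTRs from GENCODE version 44 on GRCh37. Python 3.11.15, numpy 2.4.6 and pandas 2.3.3 were used.

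The members and gene lists were chosen with earlier results of these data known. Every member is named, and from each list up to 3 called genes with the largest change and the most abundant gene not called. Of the genes this rule names, 1 is not reported here. Alternatives changed the pseudocount, the filter, the scaling, the variance trend, the threshold, the replicate block or the libraries used.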

Additional observations from a re-analysis of the deposited data

How the results depend on the processing

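The 5 genes had 680 called genes around them (limma, adjusted p under 0.05), and 1 of the 5 was called. With a mean of at least 50 required, 419 genes passed, with 3 of the 5 members tested and *TIMP3* called. The replicate block gave 133 genes and 0 members, and the threshold of 0.001 gave 1 gene and 0 members, where 3 members had an unadjusted p under 0.05 in both (limma). Leaving out 1 library at a time, 4 to 1431 genes and 0 to 2 members were called. Leaving out a wild-type library left 47 (without replicate 1) or 4 (without replicate 2) genes, and the lone library is then assumed to vary like the other group. The log2 fold change of *MMP2* was -1.82 without edited replicate 2 and turned to 0.38 without edited replicate 1.

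Same-numbered replicates share only a number in the labels, and whether they shared a batch is not given in the sources used here. Their deviations from the group means correlated at -0.14 over genes, and a crossed block, chosen after seeing the data, gave 1002 genes and 2 members. With equal library totals the median log2 fold change of all genes was -0.03 in place of 0.09, while the log2 fold changes of *TIMP3*, *MMP14* and *TIMP1* were -1.30, -1.44 and 1.83. The direction of *MMP14*, *TIMP1*, *TIMP2* and *TIMP3* was the same under every alternative run. With 2 libraries per state, both the spread between replicates and depth limit these comparisons. The spread was set against counting error only for *MMP2* in the edited replicates, where it was far larger.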

Other observations

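The edited libraries also differed from each other in some other genes of matrix turnover, named here after their values were seen. In others they lay close together, as in *ADAM15* (1.16 times apart) and *RECK* (1.17 times). Such spreads were not compared with those of all genes. *PLAU*, the urokinase that makes plasmin from plasminogen, gave 9.52 and 81.8 in the edited replicates, against 283 and 334 in the wild-type replicates. *FAP*, a membrane serine protease of activated fibroblasts, was at 12.2 and 114 in the edited libraries, on either side of the wild-type values of 55.0 and 23.1. Neither gene was called (adjusted p of 0.0770 and 0.961, limma). *ADAM12*, a metalloproteinase of mesenchymal cells, was at 3.77 and 6.44 in edited and 0.667 and 1.07 in wild-type libraries and lay just above the threshold (log2 fold change 1.68, adjusted p = 0.0518, limma).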
